A study of Arabidopsis thaliana with 6 samples.

Results

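The subject is a set of 274 clones of expressed sequence tags (ESTs), of 11926 clones printed on the array. They were chosen for a high signal with RNA of an Arabidopsis thaliana line that overexpresses SAS1, relative to RNA of untransformed plants. Their ratio, centred on the median of each array, was at least 4-fold on average over replicas 2, 3, 4 and 5. On each of these arrays, 118 of the 274 reached 4-fold. The rule subtracted the local background of each spot, set a floor of 50, took log2(SAS1-HA/untransformed) by the dye of each channel, centred each array on the median of its named spots and averaged the spots of a clone. A clone was selected where the mean of these 4 log2 ratios was at least 2 and each was above 0. The selected share was 2.3% of all clones, and the mirrored rule, for clones lower in SAS1-HA, took 59 clones, 0.495% of all. The label given to the set, transcripts raised by SAS1-HA, holds for the arrays that chose it, but on replicas 1 and 6 their median ratio was near 0 after loess, so the 274 are called the selected clones.

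SAS1 is a serpin, which the series title links to hormone crosstalk during defense. Serpins are known mainly as protease inhibitors that trap the protease after it cleaves an exposed loop of the serpin. In plant defense, salicylic acid is known for its part in responses to biotrophic pathogens and jasmonate and ethylene for theirs against necrotrophs and insects, and these pathways are known to restrain or enhance each other. The brightness of a cDNA spot is known to rise with the abundance of the transcript, and also to depend on the length of the clone and the DNA deposited.

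Both lines were grown in long days, and rosettes 3 to 4 weeks old were the source of total RNA, which was amplified with T7 polymerase. One group was the overexpressor, named SAS1-HA, and the other was the untransformed wild type, with no other allele or treatment in the labels. The promoter of the transgene, the number of lines and the number of pooled plants are not given in the sources used here. Each of 6 spotted arrays carried both lines, and per the labels Cy5 marked SAS1-HA on replicas 2, 3 and 6, while Cy3 marked it on replicas 1, 4 and 5. The labels name 2 biological experiments without tying arrays to them, so spreads between arrays may be technical.

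The scanner files put replicas 2 to 5 on one scanning day, here the same-day arrays, and replicas 1 and 6, the earlier arrays, each on a day of its own. The direction of replica 1 is not settled, because the letters HA appear in the image names of both channels and the dyes stand in the opposite order in its file and its label. Over all clones its log2 ratios correlated with those of replica 6 at -0.65 although both are turned to SAS1-HA over untransformed, so values of replica 1 are given as labelled and, where the sign matters, turned. Clones carry EST identifiers and no gene names, and the gene table held 0 of these identifiers. Gene names, sequences, rosette markers and the SAS1 transcript itself were therefore not analysed here, and 2 of the selected clones are given by identifier.

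On the same-day arrays the selected clones stood 4-fold to 10.7-fold higher in SAS1-HA by their means. These values chose the set and are given as a description. The mean log2 ratio of a selected clone ran from 2.00 to 3.41 on the scale of the rule, with a median of 2.34, which is 5.06-fold. Only 3 clones had a mean of at least 3, at 3.41, 3.28 and 3.11, and the tenth stood at 2.89. At the lower edge the set had no gap. The clones just inside had means of 2.0001, 2.0004 and 2.0063, those just outside 1.9985, 1.9962 and 1.9930, and 44 clones lay within 0.1 above the threshold and 47 within 0.1 below it. The requirement of one sign on 4 of 4 arrays removed none, since 274 clones had a mean of at least 2.

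The following ratios are on a second scale, after normexp background correction and loess normalization, which takes out the part of the ratio that follows spot brightness. On this scale the selected clones had a median log2 ratio of 2.22 on replica 2, 2.45 on replica 3, 2.08 on replica 4 and 2.30 on replica 5. Over all clones the medians of the same arrays lay between -0.01 and 0.00. The mean of a clone over these arrays ran from 1.62 to 3.38, and for 47 of the 274 it was under 2. The SD of a clone over the 4 arrays had a median of 0.31 and reached 1.15, and over all clones its median was 0.29. The same arrays chose the clones, so these SDs only describe and do not show that the clones repeat. On the scale of the rule the median SD of the selected clones was 0.38. After loess, 104 of the 274 were at least 4-fold higher on each of the 4 arrays and 266 at least 2-fold higher on each.

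**Figure D1:**
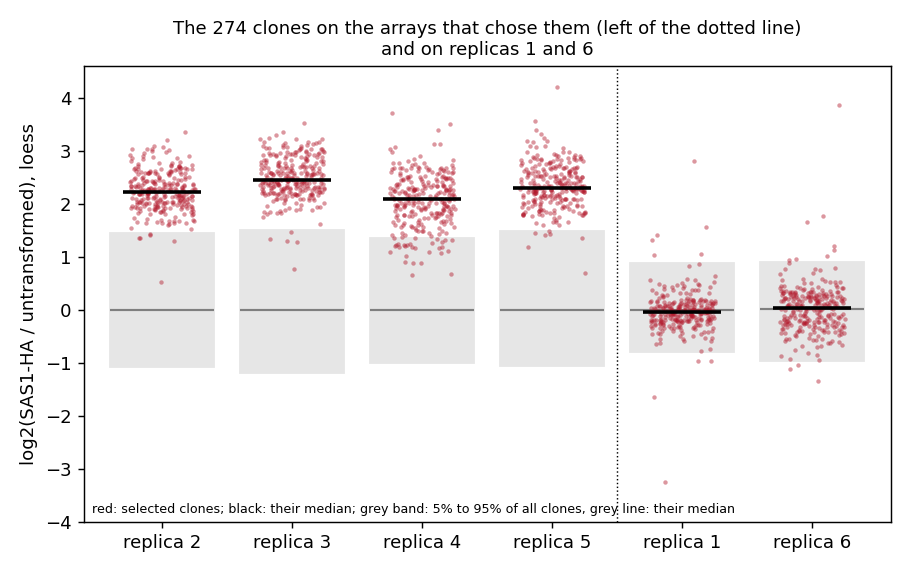
Log2(SAS1-HA/untransformed) after loess for the 274 selected clones (red points, black line at their median) on each array, with the dyes as labelled. The grey band holds 5% to 95% of all clones. Medians are 2.08 to 2.45 on replicas 2 to 5, left of the dotted line, and -0.04 and 0.04 on replicas 1 and 6.

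The sizes varied with the dye and with a tag in the image names. With the rule's ratios, the mean of replicas 2 and 3, where SAS1-HA was in Cy5, exceeded that of replicas 4 and 5, where it was in Cy3, by a median of 0.49, and it was the higher one for 228 of the 274 clones. After loess this difference was 0.16 at the median, positive for 170 clones, and for 5 clones it was over 1 in size. One tag appears in the image names of replicas 3 and 5 and another in those of replicas 2 and 4, with no statement of what they mark. The mean of replicas 3 and 5 exceeded that of replicas 2 and 4 by 0.29 at the median after loess and was the higher one for 239 clones. Over all clones the SD of the log2 ratios after loess was 0.83 and 0.78 on replicas 3 and 5. It was 0.77 and 0.73 on replicas 2 and 4. The differences by dye and tag are given for the selected clones only, and their cause was not tested. Among the selected clones the log2 ratios correlated at 0.55 between replicas 2 and 3 and at 0.56 between 4 and 5, pairs with one dye orientation. They correlated at 0.44 between 3 and 5 and at 0.17 between 2 and 4, pairs with opposite dyes and a shared tag. Pairs with opposite dyes and different tags gave 0.29 (2 and 5) and 0.14 (3 and 4). Over all clones the pairs of replicas 2 to 5 correlated at 0.71 to 0.85. The correlations of the selected clones run over 274 clones that share labelling and scanning day. The choice of high ratios narrows their range, so they only describe.

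Clone W43116 had the highest mean of the set on the scale of the rule. Its log2 ratios on that scale were 2.67 on replica 2, 3.69 on replica 3, 3.32 on replica 4 and 3.97 on replica 5, a mean of 3.41 ± 0.56 (SD, n = 4), which is 10.7-fold. Its background-subtracted signal with SAS1-HA RNA was 23074, 30287, 42386 and 25252 on replicas 2 to 5, and with untransformed RNA 5695, 2999, 5513 and 2231. Every SAS1-HA value lay above every untransformed value on these arrays. On replica 6 the signals were 18368 for SAS1-HA and 12211 for the untransformed plants, and on replica 1 as labelled 13090 and 18528. On these earlier arrays both lines lay well above the same-day untransformed values, and the loess ratios were 0.31 (replica 6) and -0.44 (replica 1). The limma mean of these arrays was -0.06 (standard error 0.44, adjusted p 0.999988). Turning replica 1 gave 0.38 (standard error 0.21, adjusted p 0.215).

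Clone T76104 was the selected clone with the highest smaller value on replicas 1 and 6 as labelled, a choice that rests on the direction of replica 1. After loess its log2 ratios were 0.44 on replica 1 and 0.34 on replica 6, against 2.33, 2.62, 2.36 and 2.34 on replicas 2, 3, 4 and 5, a same-day mean of 2.41 ± 0.14 (SD, n = 4). Both earlier values lay below the same-day range, and with replica 1 turned they were -0.44 and 0.34. They chose the clone and are given with no test. If replica 1 is turned, the same choice would fall on another clone, at 3.25 on replica 1 and 3.86 on replica 6, both above its same-day values of 2.12, 2.58, 2.46 and 2.67. The signal of T76104 with untransformed RNA was 1626, 1134, 1768 and 1456 on replicas 2 to 5 and 1486 and 2189 on replicas 1 and 6, and with SAS1-HA RNA 5542, 5860, 6723 and 5077, then 2305 and 2916. As percentiles among all clones, its untransformed signal was 28.8 to 40.4 on the same-day arrays and 55.0 and 59.4 on replicas 1 and 6 as labelled, and its SAS1-HA signal was 75.4 to 78.8 and then 62.2 and 65.6. On this relative scale it was thus lower with untransformed RNA and higher with SAS1-HA RNA on the same-day arrays.

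On replicas 1 and 6, which the rule did not use, the selected clones lay around equal levels in the lines. Their median log2 ratio after loess was 0.04 on replica 6, with quartiles at -0.25 and 0.26, and -0.04 on replica 1 as labelled, with quartiles at -0.20 and 0.11. On replica 6, 148 of 274 (54.0%) were higher in SAS1-HA, beside 50.4% of all clones. On replica 1 as labelled 111 (40.5%) were higher, beside 49.9% of all clones, or 59.5% of the selected clones with that array turned. A ratio of at least 2-fold up was seen for 6 selected clones on replica 6, beside 3.47% of all clones, and for 6 on replica 1, beside 3.45%. A ratio of at least 2-fold down was seen for 3 on replica 6, beside 4.57%, and for 2 on replica 1, beside 2.45%. After loess, each of these counts is a smaller share of the 274 than the share beside it. On the scale of the rule, 13 were at least 2-fold higher on replica 6, beside 498 of 11926 clones, a slightly larger share. At least 2-fold lower there was 1, beside 497. On replica 1 as labelled, 4 were at least 2-fold higher and 4 at least 2-fold lower on that scale, beside 542 and 374. Without loess the medians moved away from 0, and with the rule's own subtraction and centring they were 0.29 on replica 6, with 75.5% higher, and -0.33 on replica 1 as labelled, with 16.8% higher. Turned, replica 1 gave 0.33 with 83.2% higher on that scale, on the same side as replica 6.

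No selected clone passed the test on these 2 arrays as labelled. The limma fit over 11917 clones with values on both, with the dyes as labelled and Benjamini-Hochberg adjustment over all of them, called 0 of 274 selected clones in either direction at an adjusted p of 0.05, and 0 of all clones, which is 0%. At an unadjusted p under 0.05 it took 0 selected clones and 25 of all clones, 0.21% (7 higher, 0.0587%, and 18 lower, 0.151%). With replica 1 turned, limma called 20 selected clones, 7.30% of the set, beside 21.5% of all clones. Of these 12 were higher in SAS1-HA, beside 10% of all clones, and 8 lower, beside 11.5%. At an unadjusted p under 0.05 it then took 35 selected clones, beside 33.9% of all, with 19 higher, beside 16.2%, and 16 lower, beside 17.6%. In that direction SAS1-HA would be in Cy5 on both arrays, so line and dye cannot be told apart. Turned and on the scale of the rule, limma called 40 selected clones higher and 6 lower, beside 12.6% and 13.6% of all clones. The fitted means of the selected clones ran from -0.48 to 0.93 as labelled, around a median of 0.00 with a median standard error of 0.43. With replica 1 turned they ran from -1.88 to 3.56 around a median of 0.01. The upper 95% limit of the fitted mean lay under 2 for 272 of the 274 clones and under 1 for 175. With replica 1 turned it lay under 2 for 272 and under 1 for 262. These limits were computed after loess and for the selected clones only, and no conclusion about a rise is drawn from them. As labelled, the fit averages 2 arrays whose ratios ran opposite to each other, which draws the mean towards 0. Turned, line and dye cannot be told apart. The limits are not adjusted for the number of clones and treat 2 arrays as replicates.

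The ratios of replicas 1 and 6 ran opposite to each other among the selected clones too. The Pearson correlation was -0.66 over 274 clones, beside -0.65 over all clones. By rank it was weaker in the selected clones, with a Spearman's rho of -0.43, beside -0.61 over all clones. As labelled, 42 selected clones were higher in SAS1-HA on both arrays and 57 lower on both, beside 14.5% and 14.2% of all clones. Another 106 were higher on replica 6 and lower on replica 1, beside 35.9% of all clones, and 69 were the reverse, beside 35.4%. Altogether 260 of 274 (94.9%) stayed within 2-fold on both arrays, against 89.0% of all clones and 89.97% of the brightest of 5 equal groups. Of the 14 outside, 1 stood far out, at 3.86 on replica 6 and -3.25 on replica 1. Another had 2.80 on replica 1 and -0.95 on replica 6, again as labelled. No selected clone was 2-fold higher on both as labelled. Turning replica 1 made this 2, beside 1.26% of all clones.

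**Figure D2:**
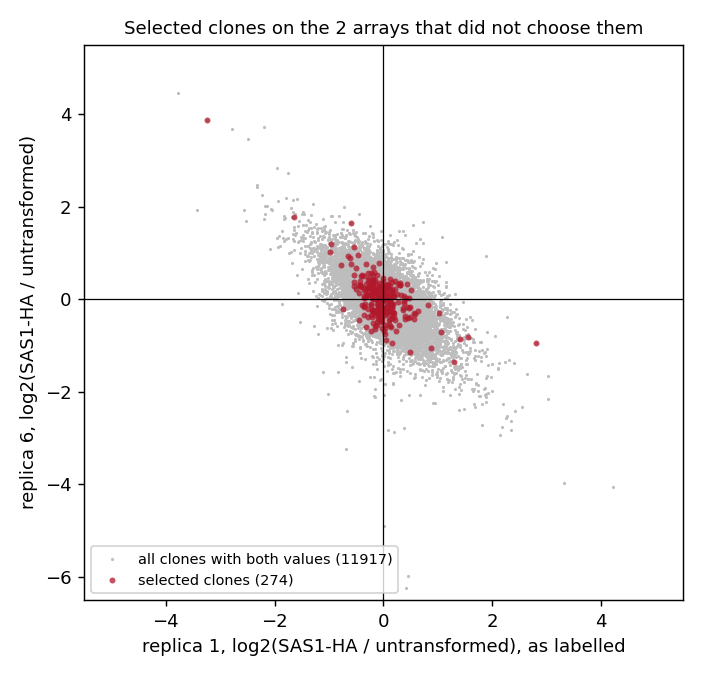
Log2(SAS1-HA/untransformed) after loess on replica 1 (as labelled) and replica 6, for 11917 clones (grey) and the 274 selected clones (red). The selected clones lie around 0 on both axes, with 260 of them within 2-fold on both, and 1 at -3.25 and 3.86.

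The signals of the lines themselves showed where the arrays differed. With untransformed RNA, the selected clones had a median signal of 5258, 4389, 7093 and 5387 on replicas 2, 3, 4 and 5, which is 1.71 to 2.74 times the median of all clones on the same array. On replica 6 their untransformed median was 15165, 9.58 times that of all clones, and on replica 1 it was 12306, 10.3 times. With SAS1-HA RNA the medians were 19988, 24321, 25649 and 18591 on replicas 2 to 5, 10.7 to 12.9 times that of all clones, 19455 on replica 6, 12.8 times, and 11088 on replica 1, 7.70 times. The same clones were thus among the bright ones in both lines on the earlier arrays and in SAS1-HA on the same-day arrays, and lay lower only with untransformed RNA on the same-day arrays. The rule used the same-day signals of both lines, so the gap between the lines there was fixed by the choice of clones and is only described. In bulk RNA of rosettes, fewer cells that hold a transcript and less of it per cell cannot be told apart.

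In ranks, the median percentile of the selected clones among all clones of an array was 65.1 to 74.1 with untransformed RNA on replicas 2 to 5 and 94.1 to 95.3 with SAS1-HA RNA. On replica 6 it was 92.7 and 93.0, and on replica 1 as labelled 91.3 and 90.4. If the dyes of replica 1 are turned, these last values change places and stay within 1 percentile of each other. Few spots were saturated. At most 2 selected clones were saturated in a line on replicas 1 to 5, and 8 in SAS1-HA on replica 6, where 64 of all clones were. Few selected clones were dim either. Taking the 95th percentile of the 323 blank spots as the limit, 272 of the 274 exceeded it for each line on every same-day array, and 272 did so on both earlier arrays.

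**Figure D3:**
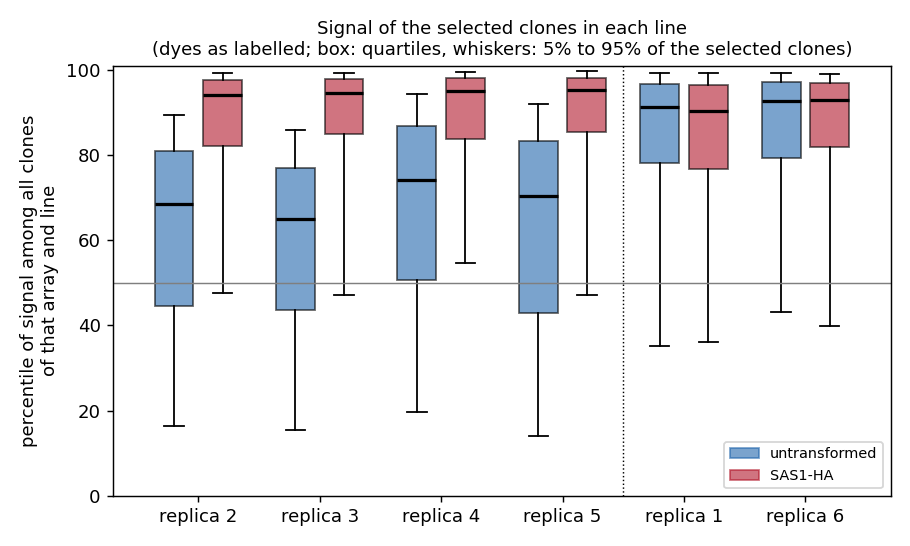
Percentile of the signal of the 274 selected clones among all clones, for untransformed (blue) and SAS1-HA (red) RNA on each array, with boxes at the quartiles and whiskers at 5% and 95% of the selected clones. Untransformed medians are 65.1 to 74.1 on replicas 2 to 5, and all other medians are 90.4 to 95.3.

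Clone by clone the same held. Each signal was divided by the median of all clones of its array and line, and for each line the mean log2 of replicas 2 to 5 was set against the mean over both lines of replicas 1 and 6, so that the dye label of replica 1 does not enter. The divisor was 2453 to 2647 with untransformed RNA on replicas 2 to 5, beside 1199 and 1582 on replicas 1 and 6 as labelled. With SAS1-HA RNA it was 1735 to 2130, beside 1440 and 1524. The differences below therefore depend on the divisor as well as on the signal of the clone. With untransformed RNA the selected clones were lower on the same-day arrays by a median of -2.36 (quartiles -2.80 and -1.75), and 271 of 274 were lower. With SAS1-HA RNA the median difference was -0.04 (quartiles -0.47 and 0.54), and 145 of 274 were lower. Over all clones these medians were -0.33 and -0.29, and over the brightest of 5 equal groups -1.06 and -0.53. The untransformed signal of 248 selected clones was lower on each same-day array than in either line on either earlier array, where 30% of all clones did the same, and 54.1% of the brightest group. The count was 265 against replica 6 alone, beside 41.1% of all clones, and 250 against replica 1 alone, beside 37.4%. The SAS1-HA signal of 52 selected clones lay above all the earlier values, beside 12.2% of all clones, and of 39 below them, beside 23.6%. The same-day signals are those the rule used, so this is a description with no test, and scanning day, plants and labelling cannot be told apart in it.

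**Figure D4:**
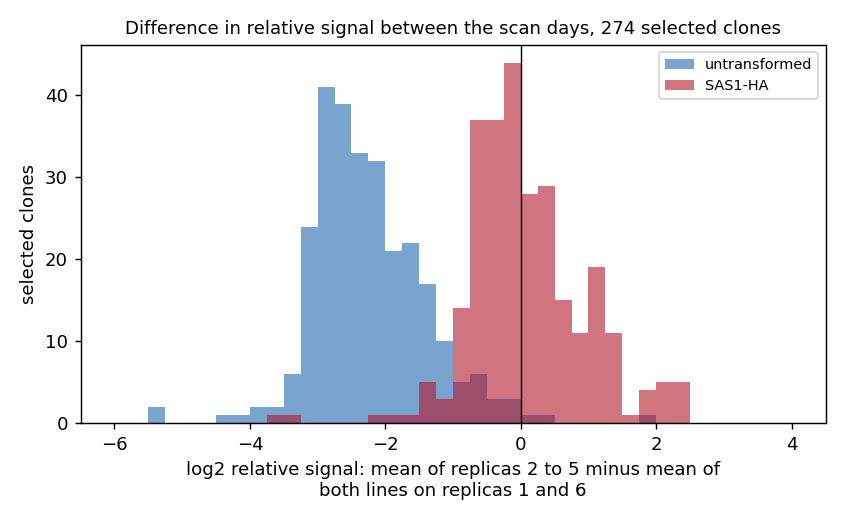
Difference in log2 relative signal between the mean of replicas 2 to 5 and the mean of both lines on replicas 1 and 6, as a count of the 274 selected clones, for untransformed (blue) and SAS1-HA (red) RNA. The untransformed values centre on -2.36 and the SAS1-HA values on -0.04.

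The 59 clones that the mirrored rule took as lower in SAS1-HA differed from the selected clones in the sign of the same quantity. Their untransformed relative signal was higher on the same-day arrays than on the earlier ones by a median of 1.93, and for 41 of 59 it lay above all the earlier values, beside 16.6% of all clones. Their SAS1-HA relative signal was lower by a median of -0.79. On replica 6 their median log2 ratio after loess was -0.92, of the sign that chose them, whereas replica 1 as labelled gave 1.04 and turned -1.04. No test of the difference between the sets was made, since the rule fixed their same-day values.

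The selected clones were bright ones. By the mean log2 signal of both lines on replicas 1 and 6, which the rule did not use, their median percentile among all clones was 92.6 and the lower quartile 79.8. With all clones in 5 equal groups by this brightness, the brightest held 205 of the 274, which is 8.59% of that group, and the others from dim to bright held 3, 14, 13 and 39, which is 0.126%, 0.587%, 0.545% and 1.64% of theirs. The brightest 5% of all clones, 597 in number, held 105 selected clones, or 17.6% of them. The 59 mirrored clones were spread otherwise, with 12, 21, 8, 13 and 5 from dim to bright. Brightness among clones reflects clone length and printed DNA as well as transcript level, and the levels of different clones are not compared here.

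**Figure D5:**
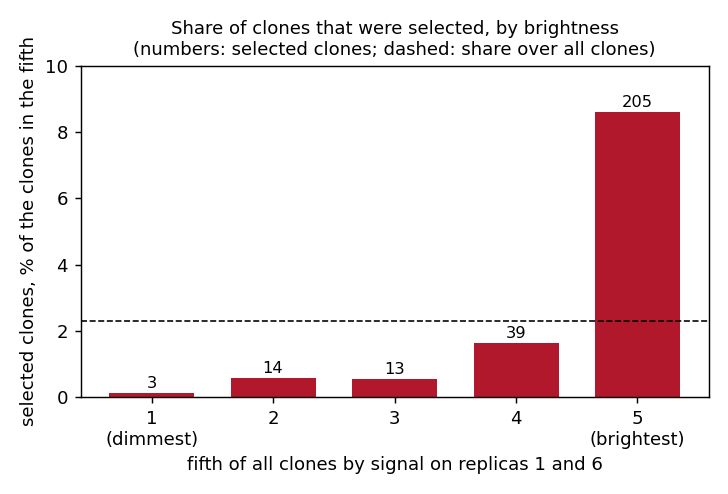
Selected clones as a percent of all clones in each of 5 equal groups by signal on replicas 1 and 6, with the number of selected clones above each bar and the share over all clones, 2.3%, as a dashed line. The brightest group reaches 8.59%, with 205 clones, and the other groups stay at or under 1.64%.

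Within the set the same-day ratio after loess correlated with brightness on replicas 1 and 6 at -0.18 over the 274 clones, which share arrays and labelling, and whose range the rule narrows from below. From dim to bright, the median same-day mean of the 5 groups was 1.87, 2.37, 2.13, 2.27 and 2.25, with 3 clones in the first. The 69 clones outside the brightest group also had a lower untransformed signal on the same-day arrays, by a median of -1.69, and for 53 of them it lay below all the earlier values, beside 23.98% of all clones outside that group. Their SAS1-HA signal was higher by a median of 0.43. Over all clones outside the brightest group these median differences were -0.17 and -0.21. In the 205 brightest clones these median differences were -2.51 and -0.15. The rule used the same-day signals of both lines, so these differences and counts are a description with no test.

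The selected clones were spread over the slide but not evenly. Each of the 32 printed blocks held some, from 2 to 15 with a median of 8.5, which is 0.529% to 3.92% of the clone spots of a block. The upper 4 of 8 rows of blocks held 152 and the lower 4 held 122, or 2.54% and 2.04% of their clone spots. Within blocks, spot row 15 held 36 (4.71%) and row 12 held 5 (0.651%), and spot column 18 held 26 (5.33%). A selected clone had another one in an adjacent position of its block in 74 of 274 cases (27.0%), while 14.0% of all clones had a selected neighbour. The part of position on the slide in the ratios was not tested. None of the 26 clones printed in 2 spots was selected, so the set holds no repeated spots.

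The identifiers of the selected clones also varied in their share. Of the 4471 clone spots whose identifier begins with T, 132 were selected (2.95%), and of those beginning with R 36 (2.71%), H 35 (2.38%), N 53 (1.84%), AA 13 (1.26%) and W 5 (0.644%). Among runs of identifiers that share their letters and first 2 digits, with at least 100 clone spots each, the share ran from 0.636% for H36 to 5.47% for H77. Several ESTs can come from transcripts of one gene, so the 274 clones may stand for fewer genes, and their number cannot be given from the files.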

How the data were processed

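The members and the rule were chosen with earlier results of these data known. Per the file headers, the scanner software gave an intensity and a local background per spot and channel, on a linear scale and with no background subtraction. A table deposited by the authors holds log2 ratios of channel 2 over channel 1 and was used only as an alternative; its centring and tool are not given in the sources used here, and it was turned here by the dyes of the labels. The file of replica 6 has no spot names, so its spots were named by number.

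Ratios were computed on separate scales. The first is that of the rule, with a floor of 50. The second used limma 3.58.1 in R 4.3.3 with normexp (offset 50) and global loess, blank spots without weight and 9 ignored spots of replica 6 left out. Spots of a clone were averaged. For the test, replicas 1 and 6 were fitted with lmFit and eBayes with no dye term, which would have left no residual degrees of freedom, and adjusted over all clones at 0.05. By rule, the clones named are those with the highest selection mean and the highest smaller value on replicas 1 and 6. Alternatives covered background, normalization, floors, filters, the authors' table, the sign of replica 1 and single arrays. Gene and marker lists were not used, for lack of gene names.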

Additional observations from a re-analysis of the deposited data

Results flagged for a closer look

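Of 17 measures of the selected clones compared between arrays, 2 had a single array standing apart. By chance about 1 in 20 groups would. On replica 6, 8 selected clones were saturated with SAS1-HA RNA, with the next highest array at 2. Over all clones 64 were saturated there, against 1 to 12 with SAS1-HA RNA on the other arrays. The log2 ratio of T76104 after loess was 2.62 on replica 3, with the other same-day arrays at 2.33 to 2.36. Outside the named clones, 1 of the 323 blank spots met the rule, with a mean log2 ratio of 2.38 made up of 8.05 on replica 4 and 0.36 to 0.65 on the other same-day arrays. None of the 13 spots without a name met it. Among the selected clones 4 had a value under 1 on some same-day array on the scale of the rule, the lowest at 0.65 on replica 2. The blank spot had this same value there, which is what the rule gives where both lines are at the floor.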

How the results depend on the processing

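The number of selected clones stayed between 206 and 283 under other floors, backgrounds, loess, the authors' table, the median over arrays and the filter on blank spots, and 191 of the 274 were selected under each other floor, normexp background, loess and the authors' table. It was 118 with at least 2 required on each array, and 238 to 316 without 1 of the 4 arrays. The count of selected clones past the adjusted p on replicas 1 and 6 was 0 under each alternative that kept replica 1 as labelled, where 0 of all clones passed as well, so this says nothing about stability. With replica 1 turned the count was 20, beside 21.5% of all clones. In combinations added after seeing the data it was 25 by median centring, 19 higher and 6 lower, beside 9.45% and 10.8% of all clones. The other such combination, on the scale of the rule, gave 46, with 40 higher and 6 lower, beside 12.6% and 13.6%. Either array alone could not be fitted, as no residual degrees of freedom remain. Without loess the medians on the earlier arrays moved away from 0. By median centring they were -0.23 on replica 1 and 0.20 on replica 6, with 22.6% and 64.6% higher in SAS1-HA, and on the scale of the rule -0.33 and 0.29, with 16.8% and 75.5% higher. The cause was not tested. With replica 1 turned its median was 0.041 and the share 59.5%, by median centring 0.23 and 77.4%, and on the scale of the rule 0.33 and 83.2%, on the same side as replica 6. Other settings moved these medians by less than 0.05, which is the SD between the medians of the earlier arrays. The comparison of signals with replica 1 or 6 alone was added after seeing the data. Each log2 ratio pairs the lines within an array, so the fit is already paired.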
